A study of Mus musculus with 8 samples.

Results

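The semaphorins, plexins and neuropilins of the mouse were examined in Min6 cells that received a Zac1 plasmid. The group was set by name and holds 31 genes, 20 semaphorin ligands and 11 receptors (9 plexins and 2 neuropilins), of 23100 genes in the deposited table of read counts. Min6 is a mouse insulinoma line, a clonal tumour line with properties of pancreatic beta cells. The Zac1 group was transfected by Lipofectamine with pRK5-Zac1, and the control group with pRK5-NLSeGFP, which encodes a green fluorescent protein carrying a nuclear localisation signal. Zac1, a zinc finger protein that binds DNA, is the product of the imprinted gene Plagl1. Both groups were of the same line and medium, and RNA was taken 16 h after transfection. The design text calls the 4 libraries of each group biological replicates. The labels number them 1, 2, 3 and 5 in both groups and do not say that they came from separate cultures, so p-values measure the spread between these libraries. The share of cells that took up a plasmid is not given in the labels.

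Library totals ran from 30.5 to 42.4 M counts. No replicate was a copy of another, since the chi-square of their counts over genes was at least 8.91 per degree of freedom. Plagl1 stood at 4629 ± 777 CPM (counts per M counts, SD, n = 4) in the Zac1 libraries (4117 to 5785) and at 77.7 ± 7.38 CPM in the controls (67.7 to 85.4), and plasmid and endogenous transcripts are counted together. The 10 beta cell markers examined were all detected, with Ins2 at 40157 CPM in the controls and 37023 CPM with Zac1. The alpha cell hormone Gcg was also present, at 1432 and 1556 CPM. Of 6 fibroblast, 6 endothelial and 6 macrophage markers, 5 of each list stayed under 1 CPM in both groups, and the endothelial marker Cdh5 had no counts.

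Semaphorins are secreted or membrane-bound proteins that steer growing axons, migrating cells and vessels. Plexins are their transmembrane receptors, with an intracellular GTPase-activating domain that acts on small GTPases of the Ras family. Most secreted class 3 semaphorins bind a neuropilin, which carries them to a plexin A, while Sema3e binds Plxnd1 directly. The membrane-bound class 4 semaphorins bind mainly plexins B, class 6 plexins A, and the lipid-anchored Sema7a binds Plxnc1. In the mouse pancreas, signals from semaphorins to neuropilins are known to guide islet cells during development.

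Control Min6 cells held most of these transcripts, at levels spread over several orders of magnitude. Levels of different genes were compared as CPM per kb of exon length, means over the 4 control libraries. Plxnb2 was the highest of the 31, at 25.8 ± 2.39 CPM per kb, followed by its relative Plxnb1 at 7.69 ± 0.411. Plxnb2 made up 51.7% to 56.9% of all receptor CPM in controls, and with Zac1 51.2% to 54.7%. Among the ligands, the class 4 semaphorins Sema4b (6.14 ± 0.319 CPM per kb) and Sema4c (4.32 ± 0.283) led, both known from other systems for signalling through plexins B or at synapses. They were followed by Sema6d (3.37 ± 0.208), Sema4d (3.04 ± 0.185) and Sema4f (2.47 ± 0.143), where Sema6d and Sema4d lay within their spread of each other. The plexins A other than Plxna4 formed a middle group, with Plxna3 at 3.13 ± 0.170 CPM per kb, Plxna1 at 2.30 ± 0.187 and Plxna2 at 2.23 ± 0.0782. Plxna1 and Plxna2 did not differ beyond their spread. Both neuropilins were low, Nrp1 at 0.161 ± 0.0138 and Nrp2 at 0.0776 ± 0.0242 CPM per kb. Plxnc1 (0.0440 ± 0.00977), Plxna4 (0.0195 ± 0.00604) and Plxnb3 (0.00480 ± 0.00395) lay at the bottom of the receptors, and Sema7a (0.0797 ± 0.0345) and Sema3b (0.0175 ± 0.00631) at the bottom of the ligands.

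**Figure D1:**
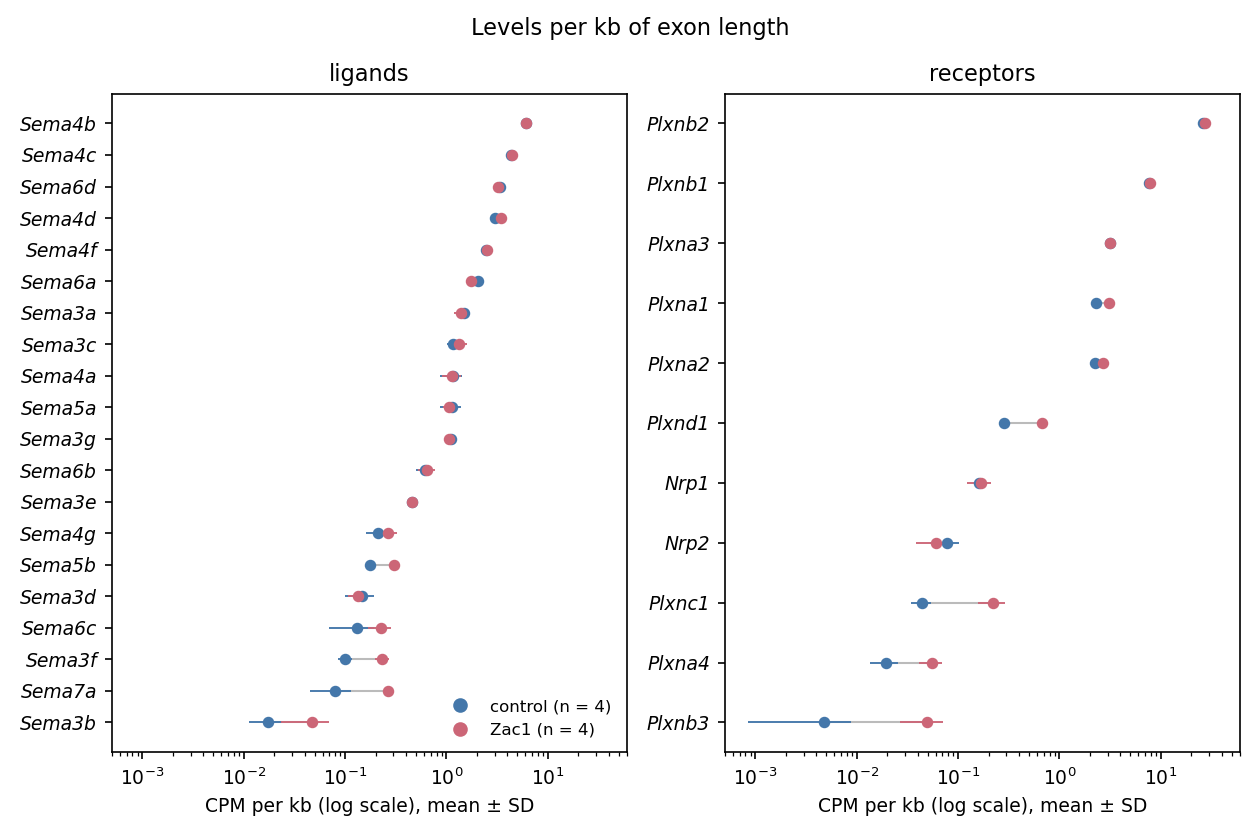
Level of each of the 20 ligands and 11 receptors in CPM per kb of exon length on a log axis, as the mean ± SD of the 4 control libraries (blue) and the 4 Zac1 libraries (red), joined by a grey line. Plxnb2 stands far above the other receptors, and the widest gaps between the groups are at the low end of each panel, at Sema7a, Plxnc1, Plxna4 and Plxnb3.

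The comparison of Zac1 with control libraries asked which genes respond to Zac1. Of the 31 genes 29 had enough counts to be tested, and 8 of them rose (edgeR's quasi-likelihood test with Benjamini-Hochberg adjusted p under 0.05 over 14331 genes). These were 3 of 19 tested ligands, Sema3f, Sema5b and Sema7a, and 5 of 10 tested receptors, Plxna1, Plxna2, Plxna4, Plxnc1 and Plxnd1. The share called higher was 27.6%, against 2.15% of all tested genes. The members were chosen with earlier results of these data known, so this share describes them and tests nothing. An unadjusted edgeR p under 0.05 was found for 10 higher members, where 5.65% of all tested genes were so. Sema7a and Plxna4 reached the level needed for testing in all 4 Zac1 libraries but in 2 of 4 control libraries, so they passed the filter through the group in which they were high. No member fell in edgeR without a replicate block, in DESeq2 or in limma-voom, where 0.0349% of all tested genes fell in edgeR. With the replicate numbers as a block in edgeR, Sema6c was also called higher and Sema6a lower. In that fit 3.57% of all tested genes were called higher and 0.809% lower. At an unadjusted edgeR p under 0.05, 1 member, Sema6a, was lower, as were 1.93% of all tested genes. The median log2 change was 0.06 for the 29 members and -0.01 for all tested genes. In bulk RNA a change in the number of cells that express a gene and a change in RNA per cell cannot be told apart.

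**Figure D2:**
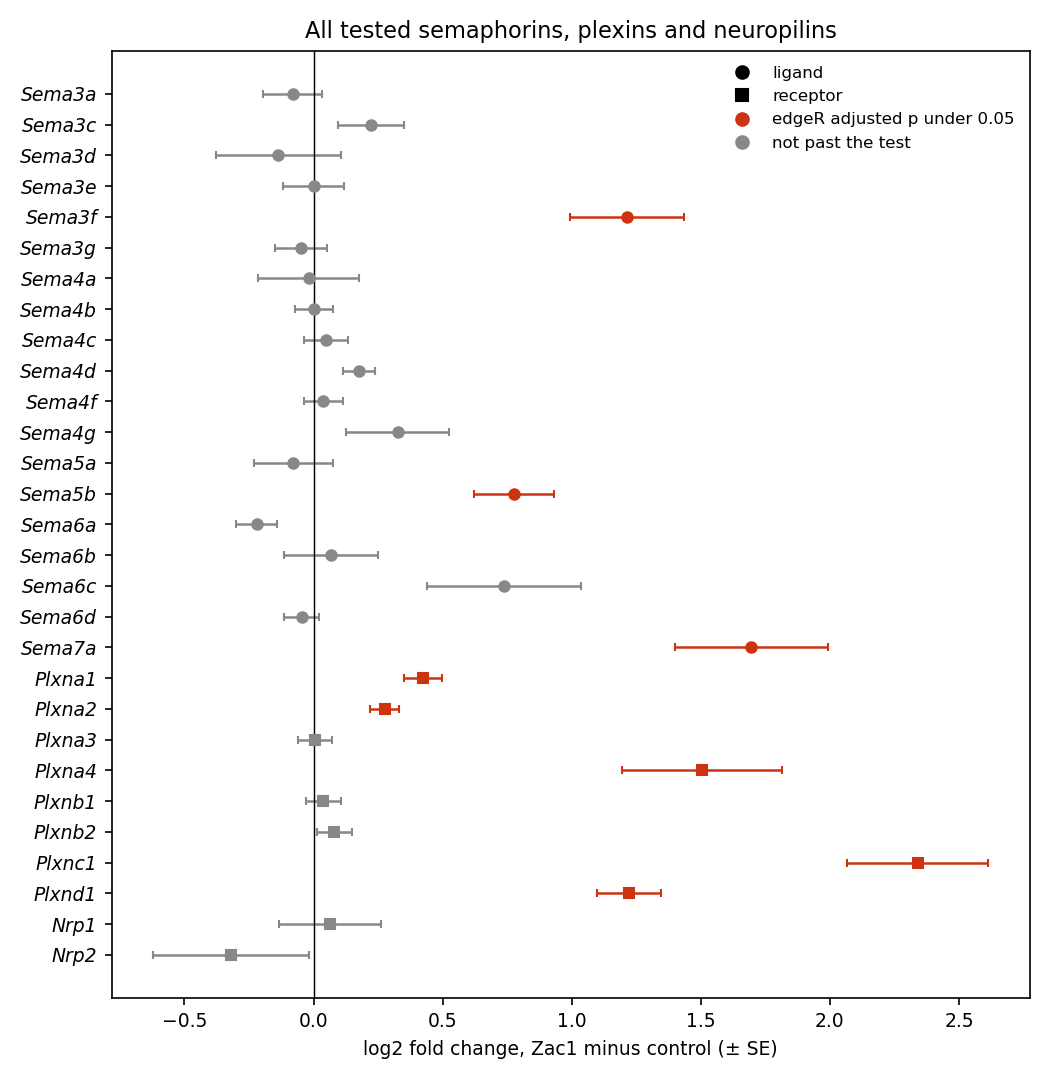
Log2 fold change of Zac1 over control for the 29 tested members, with the standard error as a bar, circles for ligands and squares for receptors, over 4 libraries a group. The 8 genes in red passed the test, from Plxna2 at 0.28 to Plxnc1 at 2.34, and the grey genes did not.

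Plxnc1, the receptor of Sema7a, had the largest change among the tested receptors. Its level was 0.292, 0.313, 0.471 and 0.393 CPM in control libraries 1, 2, 3 and 5, and 2.61, 1.73, 1.28 and 1.82 CPM in the Zac1 libraries of the same numbers. Every Zac1 library lay above every control library, with the highest value in Zac1 library 1. The change was 5.06-fold (log2 2.34 ± 0.27, SE; edgeR adjusted p = 0.000111). Its ligand Sema7a, a membrane protein held by a lipid anchor that also binds integrins, stood at 0.234, 0.398, 0.126 and 0.294 CPM in the controls and 0.765, 0.964, 0.819 and 0.922 CPM with Zac1. The groups were apart here as well, and the change was 3.24-fold (log2 1.70 ± 0.30; edgeR adjusted p = 0.00396). The control values rest on few reads, 4 to 14 per library for Sema7a and 10 to 15 for Plxnc1. On the summed reads the ratio of Zac1 to control was 3.25 (95% counting interval 2.23 to 4.86) for Sema7a and 5.12 (3.77 to 7.10) for Plxnc1.

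The promoter windows of this pair and of Sema5b, a further ligand that rose, are shown as examples. Those of Plxna2 and Plxnd1, which rose as well, are not shown. Each window runs from 250 bases before to 50 after a start site, 5′ to 3′ in the direction of the gene, from RefSeq on build GRCm38.p6, whereas the counts were made on mm9. Capitals mark GGGCGG, the GC box of many promoters, and GGGGGGG, chosen because Zac1 is known to bind G-rich DNA, each on either strand.
Sema7a (chr9:57939862-57940161, GRCm38.p6, plus strand): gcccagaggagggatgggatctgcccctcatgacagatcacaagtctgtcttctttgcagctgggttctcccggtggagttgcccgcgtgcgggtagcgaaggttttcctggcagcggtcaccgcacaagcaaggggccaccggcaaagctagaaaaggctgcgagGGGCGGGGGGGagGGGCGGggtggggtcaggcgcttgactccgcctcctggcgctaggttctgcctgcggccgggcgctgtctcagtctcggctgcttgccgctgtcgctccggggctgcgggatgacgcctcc
Plxnc1 (chr10:94944796-94945095, GRCm38.p6, minus strand): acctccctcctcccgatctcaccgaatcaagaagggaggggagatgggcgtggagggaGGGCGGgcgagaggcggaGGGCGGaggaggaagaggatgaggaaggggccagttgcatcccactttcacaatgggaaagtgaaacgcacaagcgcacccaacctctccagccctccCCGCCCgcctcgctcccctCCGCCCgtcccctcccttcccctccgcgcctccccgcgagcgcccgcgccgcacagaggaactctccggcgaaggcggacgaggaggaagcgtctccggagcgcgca
Sema5b (chr16:35541112-35541411, GRCm38.p6, plus strand): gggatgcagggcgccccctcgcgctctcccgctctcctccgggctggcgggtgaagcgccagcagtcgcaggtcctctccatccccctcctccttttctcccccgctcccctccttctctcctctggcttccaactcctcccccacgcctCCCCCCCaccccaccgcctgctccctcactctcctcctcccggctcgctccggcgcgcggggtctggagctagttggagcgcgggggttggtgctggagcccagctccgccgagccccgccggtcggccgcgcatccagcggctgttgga

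The window of Sema7a held both motifs, which overlap there, that of Plxnc1 held GGGCGG at 4 places, and that of Sema5b held GGGGGGG on the opposite strand. The windows of Plxna2 and Plxnd1 each held GGGCGG at 2 places and had no GGGGGGG. Whether either motif bears on the rise of these genes was not tested. GGGGGGG occurred in 2 of the 5 windows of members that rose (those of Sema5b and Sema7a) and in 2 of the 32 windows of other members. It was in 9.0% of the 14388 windows of tested genes and in 7.25% of all 32851 windows of the table. The GC box occurred in 4 of the 5, in 23 of the 32, in 60.5% of the windows of tested genes and in 35.7% of all windows. The table holds 37 windows for 26 of the members. Sema3b, Sema3f, Sema6a, Plxna1 and Plxna4 were not in it.

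Plxnd1, the receptor of Sema3e in vessels and in neurons, rose from a higher level with a small spread. It was at 2.08, 1.90, 2.42 and 1.96 CPM in control libraries 1, 2, 3 and 5 and at 4.54, 5.16, 4.99 and 4.82 CPM with Zac1. The lowest Zac1 value was well above the highest control value, and the change was 2.33-fold (log2 1.22 ± 0.12; edgeR adjusted p = 3.15e-05). This was the smallest adjusted p among the members.

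Of the 4 plexins A, which transduce class 3 signals with neuropilins and bind class 6 semaphorins directly, 3 rose and Plxna3 did not pass the test. Plxna1 went from 18.7, 22.4, 20.4 and 21.9 CPM to 26.6, 26.5, 30.02 and 28.7 CPM (1.34-fold, log2 0.42 ± 0.07; edgeR adjusted p = 0.00328). Plxna2 went from 38.2, 38.5, 36.8 and 40.0 CPM to 48.4, 45.9, 42.6 and 48.9 CPM (1.21-fold, log2 0.28 ± 0.06; edgeR adjusted p = 0.0166). In both genes the groups did not overlap, although the change was under 1.5-fold. The call of Plxna2 depended on single libraries. Leaving out control library 2 or 3 gave an edgeR adjusted p of 0.0542 or 0.0634, and leaving out Zac1 library 1 or 2 gave 0.0630 or 0.0520. Plxna4 was far lower, at 0.292, 0.170, 0.377 and 0.262 CPM in the controls and 0.837, 0.823, 0.506 and 0.969 CPM with Zac1 (2.84-fold, log2 1.51 ± 0.31; edgeR adjusted p = 0.0150). Its groups did not overlap, and it no longer passed if control library 2 was left out (edgeR adjusted p = 0.0704), or if both libraries numbered 5 were (edgeR adjusted p = 0.0677). Plxna3 gave 24.7 ± 1.34 CPM in the controls and 24.8 ± 1.48 CPM with Zac1, a log2 change of 0.01 ± 0.07. Summed over the 4 genes, the plexin A level ran from 82.0 to 86.8 CPM among controls and from 96.0 to 103 CPM among Zac1 libraries.

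**Figure D3:**
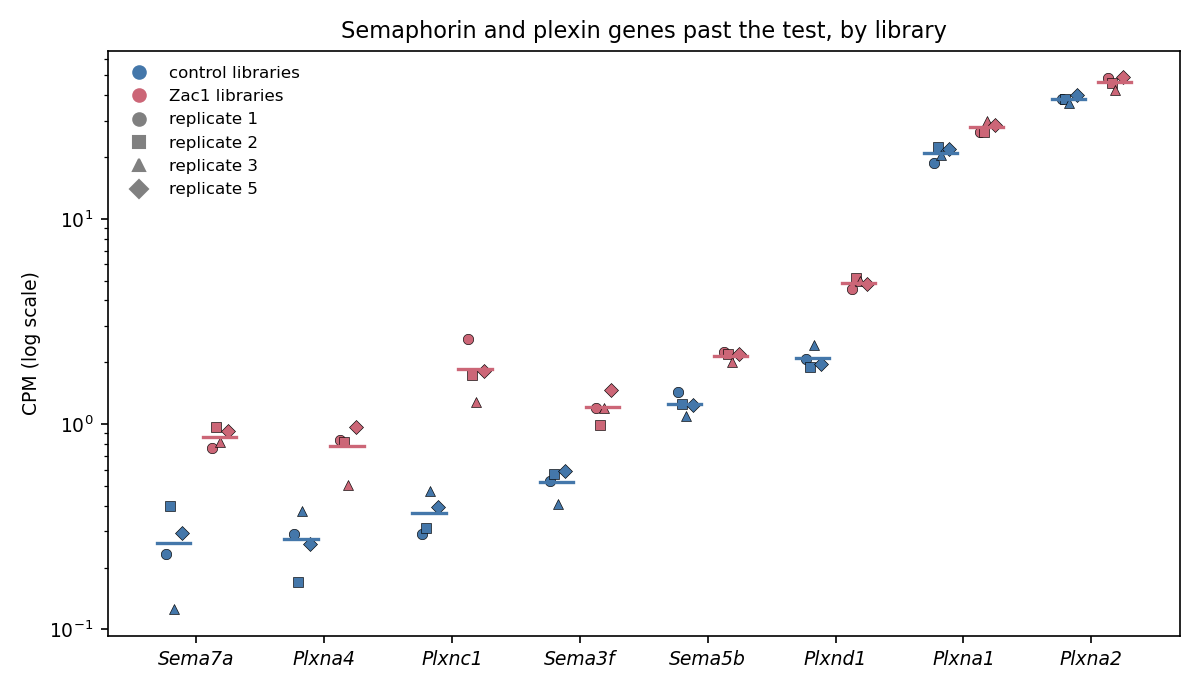
CPM on a log axis in each library for the 8 members that passed the test, ordered by control level, with controls in blue, Zac1 in red, a symbol for each replicate number and a bar at each group's mean. The groups are apart in all 8 genes, widest in Plxnc1 and narrowest in Plxna2.

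The best expressed receptors did not pass the test. Plxnb2, which is known for binding class 4 semaphorins, had 200, 222, 199 and 177 CPM in control libraries 1, 2, 3 and 5 and 221, 215, 218 and 189 CPM with Zac1 (log2 0.08 ± 0.07; edgeR adjusted p = 0.931). The groups overlapped, and the libraries numbered 5 were lowest in both. Plxnb1, the main receptor of Sema4d, gave a log2 change of 0.04 ± 0.07. Nrp1, a coreceptor of Sema3a and of vascular endothelial growth factor, gave 0.06 ± 0.20. Nrp2, the coreceptor of Sema3f, gave -0.32 ± 0.30, at 0.919 ± 0.286 CPM in the controls and 0.723 ± 0.272 CPM with Zac1. The standard errors for the neuropilins are several times those of plexins B, whose counts were higher.

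Among the secreted class 3 ligands, Sema3f was the single one of 6 tested that passed. It repels axons through Nrp2. It stood at 0.526, 0.568, 0.408 and 0.589 CPM in the controls and at 1.195, 0.993, 1.205 and 1.47 CPM with Zac1, with no overlap of the groups (2.32-fold, log2 1.21 ± 0.22; edgeR adjusted p = 0.00579). The control libraries held 13 to 20 reads of it. Sema3a, the founding axon repellent of vertebrates, gave a log2 change of -0.08 ± 0.11. Its control mean was the highest of the class, at 1.49 ± 0.208 CPM per kb. Sema3c, at 1.15 ± 0.139, lay within their spread. Sema3e gave 0.00 ± 0.12, at 4.24 ± 0.141 CPM in the controls and 4.24 ± 0.438 CPM with Zac1. Sema3c, a ligand of Nrp1, Nrp2 and Plxnd1, gave 0.22 ± 0.13, Sema3g -0.05 ± 0.10 and Sema3d -0.14 ± 0.24.

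Among the class 5 ligands, which carry thrombospondin repeats, Sema5b rose and Sema5a did not pass the test. Sema5b had 1.43, 1.25, 1.10 and 1.24 CPM in control libraries 1, 2, 3 and 5 and 2.25, 2.18, 1.9996 and 2.199 CPM with Zac1. Its lowest Zac1 value lay above its highest control value (1.71-fold, log2 0.78 ± 0.15; edgeR adjusted p = 0.0114). Sema5a, at 21.1 ± 5.07 CPM in the controls and 19.9 ± 2.56 CPM with Zac1, gave -0.08 ± 0.15.

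In classes 4 and 6 no ligand passed in edgeR without a replicate block, in DESeq2 or in limma-voom. With the replicate numbers as a block in edgeR, Sema6c was called higher (edgeR adjusted p = 0.0333) and Sema6a lower (edgeR adjusted p = 0.0384). At an unadjusted edgeR p under 0.05, Sema4d and Sema6c were higher and Sema6a lower, and the groups of Sema4d and Sema6a did not overlap. Groups apart in the upward direction were found for 4.39% of all tested genes and in the downward direction for 1.42%. Sema4d, the ligand of Plxnb1 and Plxnb2, had 23.5, 25.0, 23.4 and 21.6 CPM in the controls and 26.6, 26.5, 26.4 and 26.1 CPM with Zac1 (log2 0.18 ± 0.06; edgeR adjusted p = 0.306). Sema6a, a transmembrane ligand of Plxna2 and Plxna4, had 16.6, 18.4, 17.8 and 18.8 CPM in the controls and 13.3, 16.3, 15.6 and 16.3 CPM with Zac1 (log2 -0.22 ± 0.08; edgeR adjusted p = 0.354). Sema6c had the largest estimate of these classes, 0.74 ± 0.30, with overlapping groups (0.787 ± 0.370 against 1.34 ± 0.335 CPM; edgeR adjusted p = 0.494). The other class 4 ligands ranged from -0.02 for Sema4a to 0.33 ± 0.20 for Sema4g, and Sema6b and Sema6d gave 0.07 ± 0.18 and -0.05 ± 0.07. For the well expressed Sema4b the log2 change was 0.00 ± 0.07.

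A pair of members had too few reads for the filter. Plxnb3, a receptor of Sema5a, had 1, 0, 2 and 1 reads in control libraries 1, 2, 3 and 5 and 22, 8, 13 and 9 in the Zac1 libraries. Every Zac1 library was above every control library, and the ratio of summed reads, scaled for depth, was 10.6 (95% counting interval 3.92 to 40.5). With no filter on low counts it passed the test (log2 3.27, edgeR adjusted p = 0.00355), and in DESeq2 as well (3.39, DESeq2 adjusted p = 0.0119). Sema3b, a class 3 ligand, had 2, 3, 4 and 2 reads in the controls and 9, 13, 4 and 9 with Zac1. Zac1 library 3 lay below control library 3, so the groups overlapped, and it did not pass with no filter (log2 1.37, edgeR adjusted p = 0.469).

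Ligands were then set against their receptors in 26 pairs drawn from known binding, of which 24 had both genes tested. Both genes rose in 2 pairs, Sema7a with Plxnc1 and Sema5b with Plxna1. The receptor alone passed in 9 pairs, the ligand alone in 3, and neither in 10. The pairs share genes, with Plxnd1 and Plxna4 in 3 pairs each, so they are not separate observations. Pairs with Sema7a or Plxna4 entered only because these genes passed the filter through the group in which they were high. The ratio of ligand to receptor reads was taken in each library, which needs no scaling between libraries, and compared between groups by a two-sided exact permutation test over 70 assignments. The ratio differed without overlap in 12 pairs, each at an exact permutation p = 0.0286, the smallest the 70 assignments allow. These 12 were the 9 pairs in which the receptor alone passed and the 3 in which the ligand alone did. The ratios thus restate those calls on the same reads and add no separate evidence. No pair passed after adjustment over the 24 pairs (exact permutation test, adjusted p = 0.0571 for these 12), and the design allows no smaller value for 12 pairs.

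The ratio was lower with Zac1 in 9 of these 12 pairs, and higher in 3. The receptor of each of the 9 was Plxnd1, Plxna4, Plxna1 or Plxna2, and the ligand of each of the 3 was Sema3f or Sema5b. Sema3e and its receptor Plxnd1 went from a mean log2 ratio of 1.02 ± 0.19 (SD, n = 4) to -0.21 ± 0.16, with values of 1.01, 1.16, 0.75 and 1.16 in the controls and -0.15, -0.17, -0.43 and -0.07 with Zac1. Per kb of exon, Plxnd1 was at 0.286 ± 0.0315 CPM against 0.456 ± 0.0152 for Sema3e in the controls, and at 0.668 ± 0.0361 against 0.457 ± 0.0472 with Zac1. By this measure the receptor transcript was below that of its ligand in the controls and above it with Zac1. That order rests on exon union lengths, since the lengths of the transcripts expressed in these cells were not measured. The largest shift was that of Sema6a to Plxna4, -1.69 ± 0.32 (SE). It rests on few reads, since the control libraries held 6 to 12 reads of Plxna4. A pseudocount of 2 reads in place of 0.5 gave -1.54. The shift of Sema6a to Plxna2 was -0.50 ± 0.10. Sema6d to Plxna1, a pair known from the heart and from immune cells, shifted by -0.47 ± 0.07.

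The 3 pairs with a higher ratio each had a ligand that rose and a receptor that did not pass. Sema3f to Nrp2 went from -0.76 ± 0.36 (SD) to 0.82 ± 0.47, a shift of 1.58 ± 0.30 (SE). Sema3f to Plxna3 shifted by 1.18 ± 0.18, and Sema5b to Plxna3 by 0.77 ± 0.12. Per kb, Sema3f was at 0.101 ± 0.0155 CPM and Nrp2 at 0.0776 ± 0.0242 in the controls, within their spread. With Zac1 they were at 0.234 ± 0.0373 and 0.0611 ± 0.0230.

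In the pairs in which both genes rose, the ratio shifted by -0.51 ± 0.51 for Sema7a to Plxnc1 (exact permutation p = 0.343, adjusted p = 0.433) and by 0.35 ± 0.14 for Sema5b to Plxna1 (exact permutation p = 0.0857, adjusted p = 0.147). The first shift was no larger than its standard error, and both genes had few reads in the controls. The pairs of class 4 ligands with plexins B shifted by 0.14 ± 0.08 for Sema4d to Plxnb1, 0.10 ± 0.05 for Sema4d to Plxnb2, -0.04 ± 0.04 for Sema4c to Plxnb2 and 0.25 ± 0.21 for Sema4g to Plxnb2.

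**Figure D4:**
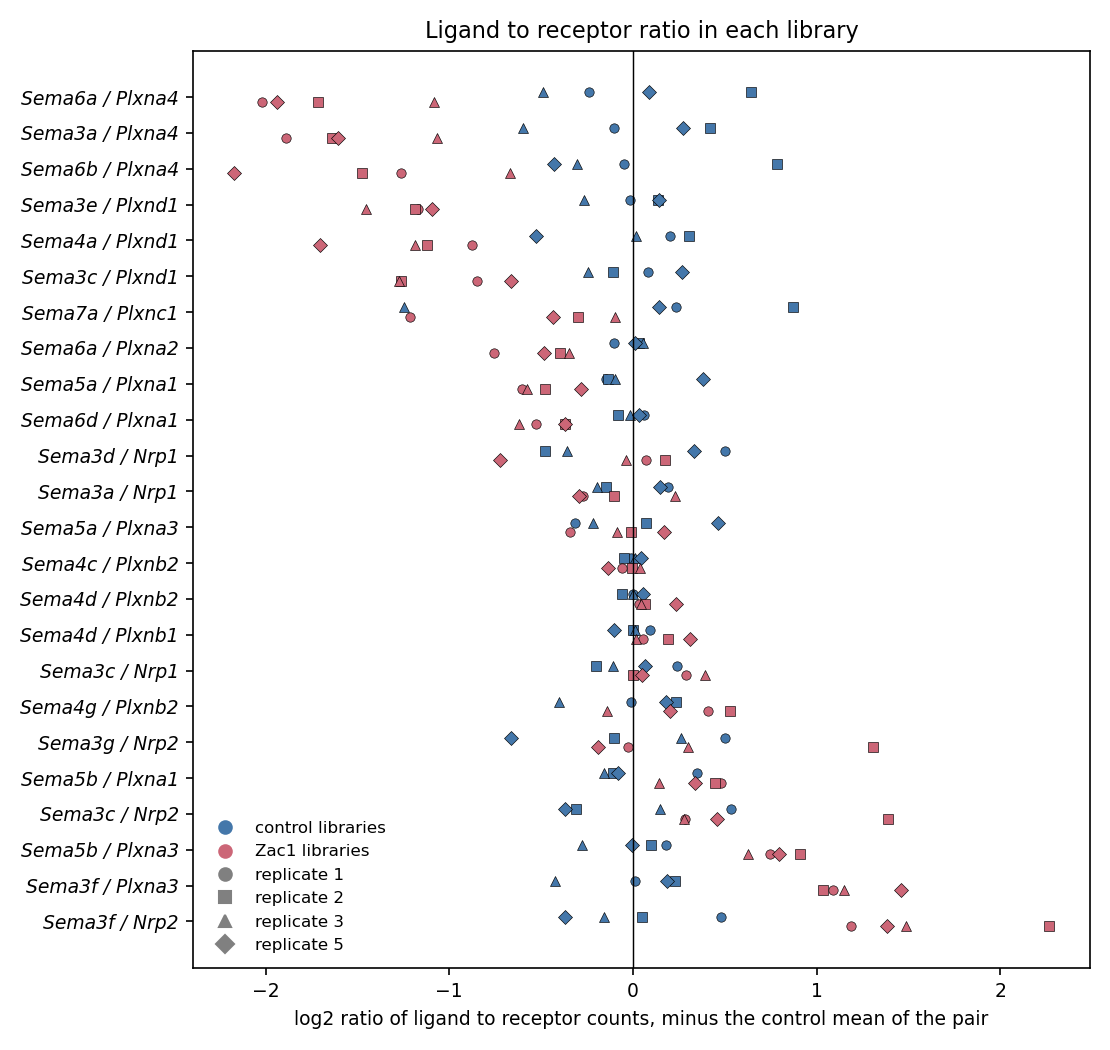
Log2 ratio of ligand to receptor reads in each library for the 24 pairs, minus the pair's control mean, with controls in blue, Zac1 in red and a symbol for each replicate number. Pairs at the top, with Plxna4 or Plxnd1 as the receptor, lie left of the controls, the 3 lowest pairs lie right of them, and the pairs of Sema4c and Sema4d with plexins B lie near 0.

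Other genes of the pathway were taken from a list of 65 coreceptors, GTPases and cytoplasmic effectors, of which 58 were tested. Of these, 4 rose (6.9%, against 2.15% of all tested genes), and the median log2 change of the 58 was 0.00. The list was chosen with earlier results of these data known, so the share describes the list and tests nothing. Of the 58 genes none fell in edgeR without a replicate block, in DESeq2 or in limma-voom. With the replicate numbers as a block in edgeR, 1 gene, Dpysl2, was called lower (edgeR adjusted p = 0.0264). At an unadjusted edgeR p under 0.05 without the block, Dpysl2 alone was lower, where 1.93% of all tested genes were so. Among the coreceptors, Erbb2, a receptor tyrosine kinase that associates with Plxnb1, went from 0.205, 0.284, 0.188 and 0.131 CPM in the controls to 0.980, 1.28, 1.04 and 1.11 CPM (log2 2.41 ± 0.27; edgeR adjusted p = 8.83e-05). The control values of Erbb2 all lay below the 0.287 CPM needed for testing. It thus passed the filter through the group in which it was high, and its control values rest on few reads. Cntn2, an axonal adhesion protein of the L1 and Nrp1 receptor complex, went from 0.523 ± 0.0466 to 1.39 ± 0.235 CPM (log2 1.40 ± 0.22; edgeR adjusted p = 0.00132). Groups did not overlap in either gene.

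Among the GTPases and their regulators, Sh3bp1, a Rac-inactivating protein known to act below Plxnd1, had 0.468, 0.426, 0.345 and 0.589 CPM in the controls and 1.46, 1.56, 1.61 and 1.84 CPM with Zac1 (log2 1.82 ± 0.22; edgeR adjusted p = 0.000118). Rnd2, a small GTPase of a group that binds plexins, had 4.80, 3.84, 4.36 and 3.50 CPM in the controls and 10.3, 8.79, 8.29 and 5.93 CPM with Zac1 (log2 1.01 ± 0.16; edgeR adjusted p = 0.00193). Both genes were higher in each Zac1 library than in any control library. Of 28 tested cytoplasmic effectors none passed in edgeR without a replicate block, in DESeq2 or in limma-voom. Among all tested genes, an unadjusted edgeR p under 0.05 was found for 5.65% higher and 1.93% lower. Among the 28 effectors it was found for 3, of which 2 were higher. The lower one, Dpysl2, which relays Sema3a signals to microtubules, had 276 ± 14.6 CPM in the controls and 246 ± 12.6 CPM with Zac1 (log2 -0.16 ± 0.05; edgeR adjusted p = 0.223).

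Markers of neurons and Schwann cells were read beside these genes, since semaphorins and plexins are expressed in both. Of 7 markers 4 were tested, and 1, the neuronal splicing factor Rbfox3, rose from 0.511 to 1.22 CPM (edgeR adjusted p = 0.0126). The summed level of the list ran from 507 to 534 CPM among controls and from 466 to 510 CPM among Zac1 libraries. The Schwann cell regulator Sox10 had too few reads to be tested. It had no counts in the controls and a mean of 0.0834 ± 0.0597 CPM (SD) with Zac1, and the groups overlapped. In the Zac1 libraries 3 reads equal 0.0707 to 0.0864 CPM. The part of such cells in the changes was not tested.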

How the data were processed

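Stranded mRNA libraries of 8 Min6 samples were counted per gene. Per the submitters' processing notes, the tools were TopHat2 2.1.1 with Bowtie2 2.2.8, HTSeq 0.6.1p1, FastQC and bcl2fastq 2.17, and the build was mm9. The authors deposited raw counts. Their annotation and strand setting were not stated in the sources used. In GENCODE vM21 the exons of the members overlap those of no other gene of the table, matched by symbol, except Mir1903 within Nrp1.

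The members and lists were chosen with earlier results of these data known, and every member was to be named, with each called pathway gene. From the counts, edgeR 4.0.16 (R 4.3.3) was run with filterByExpr, TMM scaling and a robust quasi-likelihood F test over 14331 genes, at an adjusted p threshold of 0.05. The standard error is the log2 change over the root of F. CPM uses TMM-scaled totals, and CPM per kb the union of exons in GENCODE vM21. Pair ratios used a pseudocount of 0.5 reads. The edgeR step was tested on simulated counts, and the permutation test on small sets of made-up values. DESeq2 1.42.0, limma-voom (limma 3.58.1), other scalings and filters, a replicate block and left-out libraries were the alternatives. In the library of lowest depth 3 reads equal 0.0982 CPM, and counting intervals cover counting error only.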

Additional observations from a re-analysis of the deposited data

Results flagged for a closer look

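Sema4a was at 3.96 CPM in control library 5, far below the other 3 control libraries, which lay between 6.85 and 7.10 CPM. The gap to the nearest of them was 0.921 of the whole range of the group, above Dixon's 95% critical value for 4 samples. Zac1 library 5 was also the lowest of its group for this gene, at 4.28 CPM. It was the single case among 62 groups examined, where chance gives about 1 in 20.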

How the results depend on the processing

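All 8 increases were called in DESeq2, in limma-voom, with RLE size factors and with library totals only, and the last moved the median of all genes by under 0.1. Without any 1 library the count of members called higher was 6 to 8, and that of receptors 3 to 5, lowest without control library 2, where Plxna2 and Plxna4 were lost. Ligands (3), partners (4) and members lower (0) kept their counts, all genes gave 260 to 357 higher and 1 to 5 lower, and Plagl1 5.77 to 5.95. With the filter set to a mean of 50 counts or more, 12219 genes were tested, 22 members among them. Of these members 4 were called (1 ligand, 3 receptors), with 1 partner, 99 genes higher and 0 lower. In the main test the called genes had a median control level of 0.470 CPM, against 23.5 CPM for the other tested genes. The same replicate number did not mark pairs throughout: the deviations of same-numbered libraries correlated at 0.398, 0.057, 0.234 and 0.433 across genes. With the replicate block 512 genes (3.57%) were called higher and 116 (0.809%) lower. It added Sema6c (0.79, edgeR adjusted p = 0.0333) and Sema6a, 1 member called lower (-0.22, 0.0384), and Dpysl2, 1 partner called lower, and changed no other call of a member. For the ratios, 4 paired differences allow no p below 0.125.

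Under the alternatives run, direction turned only in members and ratios that did not pass. With both libraries numbered 5 left out, Sema3d was 0.068, Sema3e -0.016, Sema5a 0.015 and Nrp1 -0.077. In limma-voom Sema3e was -0.008 and Sema4b -0.005, with the replicate block -0.002 and -0.001, and with library totals only Sema4a was 0.003. Without any 1 library the ranges were -0.179 to 0.021 for Sema3a, -0.286 to 0.024 for Sema3d, -0.039 to 0.062 for Sema3e, -0.171 to 0.130 for Sema4a, -0.032 to 0.076 for Sema4b, -0.170 to 0.104 for Sema5a, -0.047 to 0.203 for Sema6b, -0.021 to 0.046 for Plxna3, -0.005 to 0.103 for Plxnb1 and -0.115 to 0.195 for Nrp1. The ratio ranged from -0.173 to 0.0871 for Sema5a to Plxna3 and from -0.290 to 0.0674 for Sema3d to Nrp1. The cause was not tested. Depth limits Sema7a, Plxna4, Plxnc1, Sema3f and Plxnb3, whose control libraries held at most 20 reads each.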

Other observations

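The libraries numbered 5 stood at one end of their group for many members. Libraries 5 were the highest of both groups in 9 of 29 tested members (31%), against 16.0% of all tested genes. These were Sema3a, Sema3c, Sema3f, Sema5a, Sema6a, Sema6d, Plxna2, Nrp1 and Nrp2. They were the lowest of both groups in 9 others (31%, against 17.8%), namely Sema3g, 5 of the 6 class 4 ligands (Sema4a, Sema4b, Sema4c, Sema4d and Sema4f), Sema6b, Sema6c and Plxnb2. Sema5a, for example, was at 28.3 CPM in control library 5 and between 16.7 and 20.3 CPM in the other 3 controls, and at 23.4 CPM in Zac1 library 5 against 17.3 to 19.996 CPM. The labels do not say what a replicate number stands for.

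Per kilobase of exon, the order of the increases differed from that of the folds. Plxna1 gained 0.785 ± 0.133 CPM per kb (SE of the difference of means), Plxna2 0.469 ± 0.0921 and Plxnd1 0.382 ± 0.0240. The gain per kb was 0.183 ± 0.0222 CPM for Sema7a, 0.179 ± 0.0334 for Plxnc1, 0.133 ± 0.0202 for Sema3f, 0.127 ± 0.0123 for Sema5b and 0.0360 ± 0.00760 for Plxna4.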
